A study of Mus musculus with 6 samples.

Results

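The genes described here are those of the integrated stress response that act on, or downstream of, the translation initiation factor eIF2alpha. They are the 4 eIF2alpha kinases (Eif2ak1, Eif2ak2, Eif2ak3 and Eif2ak4), the transcription factors Atf4 and Ddit3, the phosphatase subunit Ppp1r15a, and Trib3 and Asns, which ATF4 is known to switch on. They were chosen by symbol, as every non-control probe whose gene name in the scanner files is one of these 9, and make up 9 of 34797 gene names and 12 of 55681 probes. Eif2ak4 had 3 probes, Atf4 had 2 and each of the others had 1.

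RNA of immortalized murine embryonic fibroblasts (MEF), cells grown out of mouse embryos and adapted to continuous culture, was put on 6 one-colour Agilent arrays, in 3 groups of 2. The WT MEF carry the strain label W4, the MEF without TIA1 (TIA1 KO) are of strain BALB/c and the MEF without TIAR (TIAR KO) are of strain C57BL/6, and the labels name no stress treatment. Genotype, strain and cell line therefore cannot be told apart, and nor can loss of TIA1 and slide row, since the 2 TIA1 KO arrays had a slide row to themselves. The study compared each knockout with WT to find the RNAs that depend on TIA1 or TIAR, and both knockouts are also set against each other here. The study describes the 2 replicates of a group as independent experiments on different biological samples, and p-values measure only the spread between them. With 2 arrays a group, precision is limited, and in a bulk sample fewer cells of a type and less RNA per cell cannot be told apart.

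In the integrated stress response, each kinase senses a different stress (HRI, encoded by Eif2ak1, lack of haem; PKR, Eif2ak2, double-stranded RNA; PERK, Eif2ak3, misfolded protein in the endoplasmic reticulum; GCN2, Eif2ak4, lack of amino acids) and phosphorylates eIF2alpha. General translation then slows while ATF4 is translated more, and ATF4 induces CHOP (Ddit3), GADD34 (Ppp1r15a), which brings the phosphatase back to eIF2alpha, and genes of amino acid supply. TIA1 and TIAR are RNA-binding proteins that gather untranslated mRNA in stress granules when eIF2alpha is phosphorylated. Much of the response is carried by phosphorylation and translation, which an mRNA array does not measure.

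Values are the authors' log2 values, and a difference of 1 is a fold change of 2. A probe was called where its Benjamini-Hochberg adjusted p over all probes, from limma's moderated test, was under 0.05 and its fold change was above 2. Of 55680 probes tested, 1309 (2.35%) were called in TIA1 KO against WT, 871 (1.56%) of them higher and 438 (0.787%) lower. In TIAR KO 3172 of 55678 (5.7%) were called, 1858 (3.34%) higher and 1314 (2.36%) lower, and between TIAR KO and TIA1 KO 1278 of 55681 (2.3%) were called. Where only probes rated well above background in at least 1 of the groups compared were counted, the shares were 5.01% in TIA1 KO and 12.5% in TIAR KO. The calls in TIA1 KO depended on single arrays, with 0 when WT replicate 1 or WT replicate 2 was left out, 556 without TIA1 KO replicate 1, and 11234 when TIA1 KO replicate 2 was dropped. In TIAR KO 871, 921, 0 and 341 probes were called without WT replicate 1, WT replicate 2, TIAR KO replicate 1 and TIAR KO replicate 2. The split also moved with the scaling. With intensities scaled only to a common median, 2046 probes were called higher and 13838 lower in TIA1 KO, 1426 and 2688 in TIAR KO, and the all-probe median in TIA1 KO went from -0.12 to -0.65. It was 2.21 in TIA1 KO, with 0 calls, when processed intensities were scaled to their 75th percentile.

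The TIA1 KO arrays stood apart from the others. Their replicates correlated at r = 0.957 over all probes, against 0.990 for WT and 0.988 for TIAR KO, and 16021 and 19996 of their probes were well above background, against 23569 to 26295 on the other 4 arrays. Their median local background was 89.5 and 58.0 intensity units, against 42 to 52, and their median spot intensity was 458 and 218 units, against 119 to 152. Between WT and TIAR KO arrays these measures were close.

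The knocked-out genes were read first. With its brightest probe Tia1 was at 10.57 and 8.71 in WT and 7.52 and 8.38 in TIA1 KO, a log2 fold change of -1.69 ± 0.75 (SE; limma adjusted p = 0.247), and its second probe gave -1.87 ± 0.53 (limma adjusted p = 0.149). Neither was called lower in the MEF without TIA1. The third probe, not well above background on either WT array and so rated on 1 of 2 TIA1 KO arrays, was at least 2.14-fold higher in TIA1 KO. It was not called (limma adjusted p = 0.106). Tial1, which encodes TIAR, fell by 1.47 ± 0.27 with its second probe in TIAR KO (limma adjusted p = 0.0316), and its brightest probe, measured on 1 WT array because the other spot was an outlier, gave -2.50 ± 0.82 (limma adjusted p = 0.188).

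Markers of cell types also differed between the groups. All 6 arrays held Vim, S100a4, Col1a1, Col1a2, Fn1 and Pdgfrb well above background, whereas Pdgfra, which marks fibroblasts, was not well above background on either WT array, and Thy1 was well above background on 1 WT array, on neither TIA1 KO array and on both TIAR KO arrays. Of 8 fibroblast markers, 4 were called higher in TIA1 KO and 6 in TIAR KO, and the summed log2 level was 106 and 105 in WT, 120 and 121 in TIA1 KO, and 130 and 129 in TIAR KO, with S100a4 brightest on both WT arrays and TIAR KO replicate 2 and Col1a2 on the other 3 arrays. Of 5 epithelial markers, 3 (Cdh1, Krt8 and Krt18) were called higher in TIAR KO, with summed levels of 37.0 and 37.3 in WT, 36.5 and 39.5 in TIA1 KO, and 42.2 and 42.4 in TIAR KO. Krt8 was the brightest of them in WT and TIA1 KO and Krt18 in TIAR KO, and a second probe of Krt8 was not called (0.85). Among 4 muscle markers Acta1 was called higher in both knockouts and Des in TIAR KO, while Myog and Myod1 were not well above background on any array, and the sums were 29.3 and 29.3, 32.5 and 31.4, and 34.3 and 33.4 with Acta1 brightest. No marker of leukocytes (7, brightest Itgam) or endothelium (4, brightest Kdr) was called against WT by its brightest probe, although a dim second probe of Kdr was called higher in TIAR KO (at least 2.68-fold). Itgam was at 12.14 and 11.70 in WT, 13.83 and 13.53 in TIA1 KO, and 12.06 and 12.05 in TIAR KO, a difference of 1.76 in TIA1 KO (limma adjusted p = 0.0631). Tyrobp, not well above background in WT and well above it on 1 of 2 TIA1 KO arrays, was at least 3.17-fold higher in TIA1 KO (limma adjusted p = 0.0823). In TIA1 KO, 2 leukocyte markers were called higher with all 3 groups fitted together and 3 without TIA1 KO replicate 2. Between the knockouts Itgam was called lower in TIAR KO (-1.63) and Cd68, another leukocyte marker, higher (1.65). Both kept their sign in all 12 alternatives, from -1.78 to -0.56 and from 1.37 to 2.48. Neither call was kept with scaling to the 75th percentile or with the replicate block. The other 2 probes of Itgam had the opposite sign in TIA1 KO and between the knockouts. They were not well above background on either TIA1 KO array and not called. A second probe of Cd68, not well above background on those arrays, was at least 1.16-fold higher in TIAR KO than in TIA1 KO, not called. Ptprc, Emr1, Lyz2 and Cdh5 were not well above background on any array. The summed log2 levels in WT, TIA1 KO and TIAR KO were 60.0 and 58.3, 63.2 and 61.3, and 60.6 and 59.9 for leukocytes, and 32.8 and 33.0, 33.3 and 32.8, and 34.1 and 34.4 for endothelium. The part of these differences in the results that follow was not tested.

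Among the 9 genes, 1 was called in any comparison. Ddit3 rose in TIAR KO, where 5.7% of all probes and 12.5% of those well above background were called. None of the 9 was called in TIA1 KO (2.35% and 5.01%) or between the knockouts (2.3% of all probes). At an unadjusted p under 0.05 there were 4 of 9 in TIA1 KO (Eif2ak4, Ddit3, Ppp1r15a and Asns). All probes gave 14527 of 55680 there, and those well above background 8295 of 23441. In TIAR KO there were 2 of 9 (Ddit3 and Ppp1r15a), beside 10863 of 55678 and 8821 of 25193. The median log2 fold change of the 9 was -0.23 in TIA1 KO, beside -0.12 over all probes and -0.34 over those well above background, and -0.03 in TIAR KO, beside -0.02 and -0.05. With intensities scaled to a common median, all 9 had a negative sign in TIA1 KO and 7 were called, where 28.5% of all probes were called. All 9 were well above background on all 6 arrays with their brightest probe. Both comparisons share the WT arrays, so values that are high or low there move both. The share of all probes whose arrays did not overlap between groups was not counted. Separation of arrays, with 2 a group, is therefore given below only as a description.

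**Figure D1:**
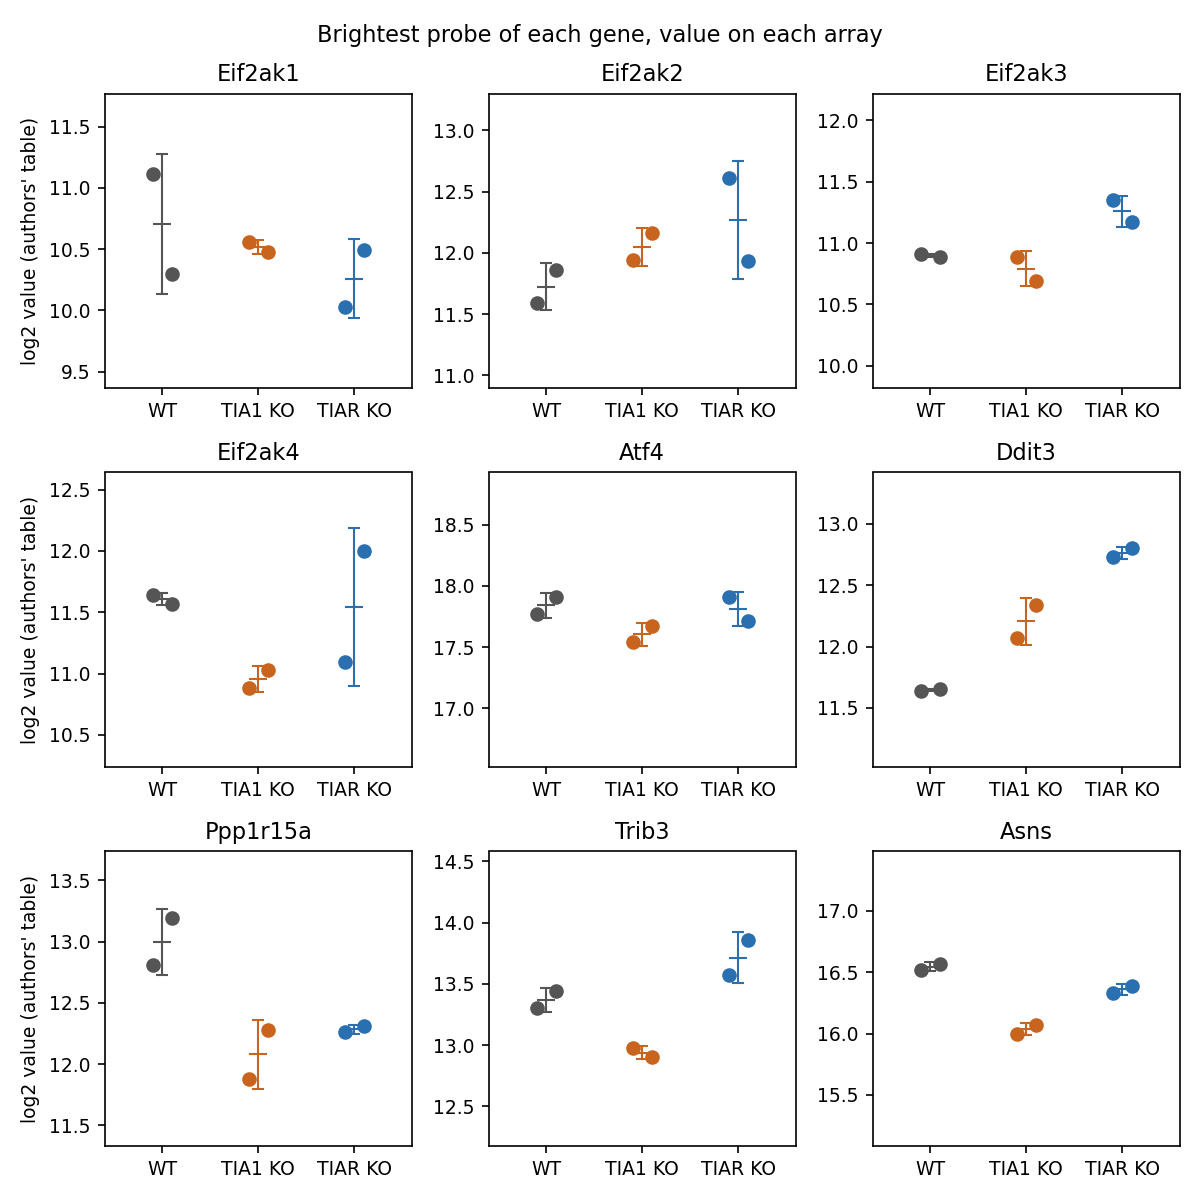
The authors' log2 value of the brightest probe of each gene (y axis, log2; every panel spans 2.4 units) for MEF of each group (WT, TIA1 KO, TIAR KO); points are arrays, and the horizontal line and bar are their mean ± SD (n = 2). Ddit3 lies at 11.64 and 11.65 in WT and at 12.73 and 12.80 in TIAR KO, and Ppp1r15a is lower on all 4 knockout arrays than on both WT arrays.

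The transcription factors come first, since the call lies among them. CHOP, the product of Ddit3, is a C/EBP-family factor that promotes cell death when stress persists. The Ddit3 probe (mm9 chr10:126732518-126732821, forward strand) is printed because it carries the only call, and its 60 bases span 304 genomic bases, so it crosses an exon junction.
Ddit3 probe: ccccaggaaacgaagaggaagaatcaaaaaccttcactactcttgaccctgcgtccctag

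Ddit3 was at 11.64 and 11.65 in WT, 12.07 and 12.34 in TIA1 KO, and 12.73 and 12.80 in TIAR KO. No 2 of the 3 groups overlapped, and WT was lowest. In TIAR KO Ddit3 rose by 1.12 ± 0.15 (SE; 95% confidence interval 0.74 to 1.50), a fold change of 2.17 with limma adjusted p = 0.0122. In TIA1 KO the log2 fold change was 0.56 ± 0.17 (0.07 to 1.05; limma adjusted p = 0.163), and TIAR KO exceeded TIA1 KO by 0.56 ± 0.18 (0.05 to 1.07; limma adjusted p = 0.211), so the difference between the knockouts was not called. The rise in TIAR KO kept its direction in all 12 alternatives, from 0.73 to 1.38, and its call in 6 of them. The call was lost with limma adjusted p = 0.124 without WT replicate 1, 0.116 without WT replicate 2, 0.103 without TIAR KO replicate 1 and 0.119 without TIAR KO replicate 2, while the log2 fold change stayed between 1.08 and 1.16. In TIA1 KO the sign turned to -0.89 with scaling to a common median.

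**Figure D2:**
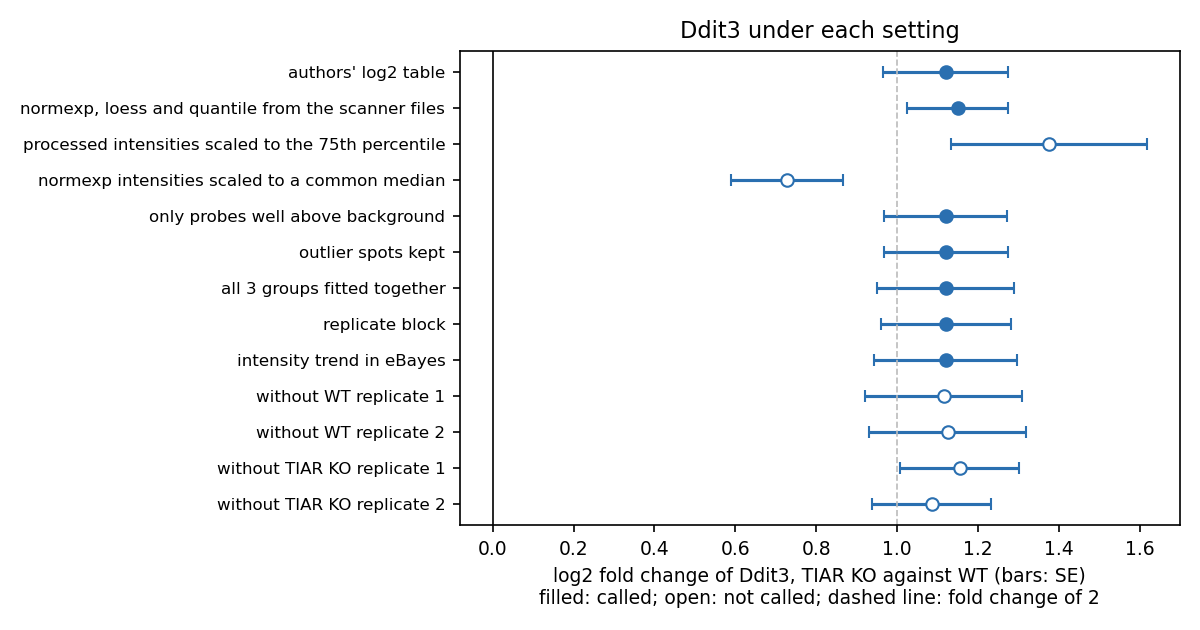
Log2 fold change of Ddit3 in TIAR KO against WT (x axis; bars are the SE of the limma fit) under the authors' log2 table and 12 alternatives (y axis); filled points were called, open points were not, and the dashed line is a fold change of 2. All points lie above 0, from 0.73 to 1.38, and 6 of the 12 alternatives are open.

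By rule, the genes whose brightest probe followed Ddit3 most closely over the 6 arrays, among 10988 genes well above background on all of them, were Farp2 (r = 0.998) and a lincRNA probe at mm9 chr5:143200674-143200733 (r = 0.998). Farp2, which encodes an exchange factor for small GTPases, was at 10.09 and 10.13 in WT, 10.56 and 10.90 in TIA1 KO, and 11.36 and 11.35 in TIAR KO. Like Ddit3 it was lowest in WT and highest in TIAR KO, where it was called (1.25 ± 0.15; limma adjusted p = 0.00810). The correlations are over 6 points from 3 lines that also differ in strain, and are given as a description.

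Atf4 encodes the factor whose translation the phosphorylation of eIF2alpha favours. Its brightest probe (mm9 chr15:80087902-80087961) was at 17.77 and 17.91 in WT, 17.54 and 17.67 in TIA1 KO, and 17.91 and 17.71 in TIAR KO. TIA1 KO lay just below WT, and TIAR KO overlapped it. The log2 fold changes were -0.23 ± 0.16 (95% confidence interval -0.68 to 0.21; limma adjusted p = 0.374) in TIA1 KO and -0.03 ± 0.17 (-0.45 to 0.39; limma adjusted p = 0.956) in TIAR KO, an interval that lies within a fold change of 2 on either side. The second probe (mm9 chr15:80086639-80086698) gave -0.04 ± 0.30 and 0.07 ± 0.26, neither called. The sign in TIAR KO was positive with the scanner intensities normalized again (0.01), with scaling to the 75th percentile (0.01), and without WT replicate 2 (0.04) or TIAR KO replicate 2 (0.07).

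Of the kinases, none was called in any comparison with its brightest probe. Eif2ak2 (PKR) was at 11.59 and 11.86 in WT, 11.94 and 12.16 in TIA1 KO, and 12.61 and 11.93 in TIAR KO (probe at mm9 chr17:79252168-79252227). Both knockouts lay above WT without overlap, and the TIAR KO arrays were far apart. The log2 fold changes were 0.33 ± 0.19 (95% confidence interval -0.21 to 0.86; limma adjusted p = 0.327) in TIA1 KO, which became -1.16 with scaling to a common median, and 0.55 ± 0.26 (-0.11 to 1.20; limma adjusted p = 0.351) in TIAR KO.

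PKR is itself induced by interferon, so its promoter was searched for the letters GAAANNGAAA, taken for the interferon-stimulated response element, on both strands. Promoters were the RefSeq windows of GRCm38.p6 from 250 bases before to 50 bases after each gene start. All 9 genes matched, with 10 promoters, and 3.44% of 32851 promoters held these letters. A match was found in Eif2ak2, beginning 19 bases after the start site, and in Ppp1r15a, beginning 220 bases before it. The stretches around them (chr17:78882535-78882564 and chr7:45526469-45526498, both reverse strand) are shown, with the match in capitals, because these are the only ones of the 9 genes with such a match.
Eif2ak2: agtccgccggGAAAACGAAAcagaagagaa
Ppp1r15a: aaaataaaagGAAAGGGAAAtggcacggta

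A match is a description of the sequence and not a binding site. In the arrays, Eif2ak2 lay above WT in both knockouts and Ppp1r15a below it, neither called, and of the 12 interferon-induced genes described further on, 4 were called lower in TIA1 KO and 7 in TIAR KO.

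Eif2ak3 (PERK; probe at mm9 chr6:70855152-70855211) was at 10.91 and 10.89 in WT, 10.89 and 10.69 in TIA1 KO, and 11.35 and 11.17 in TIAR KO. The TIAR KO arrays lay above all others. The log2 fold change was 0.36 ± 0.16 in TIAR KO (95% confidence interval -0.04 to 0.76; limma adjusted p = 0.311), which was -0.0019 with scaling to a common median, and -0.11 ± 0.16 in TIA1 KO (-0.56 to 0.34; limma adjusted p = 0.655).

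Eif2ak1 (HRI; probe at mm9 chr5:144662840-144662899) was at 11.11 and 10.30 in WT, 10.56 and 10.48 in TIA1 KO, and 10.03 and 10.49 in TIAR KO. The WT arrays were the farthest apart and enclosed TIA1 KO. No difference was detectable at this spread, with -0.19 ± 0.33 (limma adjusted p = 0.714) in TIA1 KO and -0.45 ± 0.32 (limma adjusted p = 0.542) in TIAR KO. Without WT replicate 1 the value in TIA1 KO was 0.22.

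Eif2ak4 (GCN2) was read by 3 probes in order along chromosome 2. The brightest (mm9 chr2:118300892-118300951) was at 11.64 and 11.57 in WT, 10.88 and 11.03 in TIA1 KO, and 11.09 and 12.00 in TIAR KO. TIA1 KO lay below WT, and the TIAR KO arrays lay on either side of it. The log2 fold changes were -0.65 ± 0.15 (95% confidence interval -1.08 to -0.22; limma adjusted p = 0.126) in TIA1 KO and -0.06 ± 0.31 (-0.83 to 0.71; limma adjusted p = 0.952) in TIAR KO, where the value without TIAR KO replicate 1 was 0.39.

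The second probe of Eif2ak4 (mm9 chr2:118277964-118278023) was at 10.03 and 9.98 in WT, 7.51 and 8.89 in TIA1 KO, and 9.29 and 9.03 in TIAR KO. Here both knockouts lay below WT. In TIAR KO the adjusted p passed the threshold but the fold change did not (-0.84 ± 0.17, a fold change of 1.80; limma adjusted p = 0.0442), and in TIA1 KO the probe, near background on 1 of 2 arrays, gave -1.80 ± 0.52 (limma adjusted p = 0.152). The third probe (mm9 chr2:118253890-118253949) was not well above background on either TIA1 KO array, where it was at least 1.45-fold lower than in WT (limma adjusted p = 0.208), and gave -0.31 ± 0.27 in TIAR KO (limma adjusted p = 0.625). With all 3 probes the TIA1 KO arrays lay below WT, none of them called, and the share of all probes that did so was not counted.

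**Figure D3:**
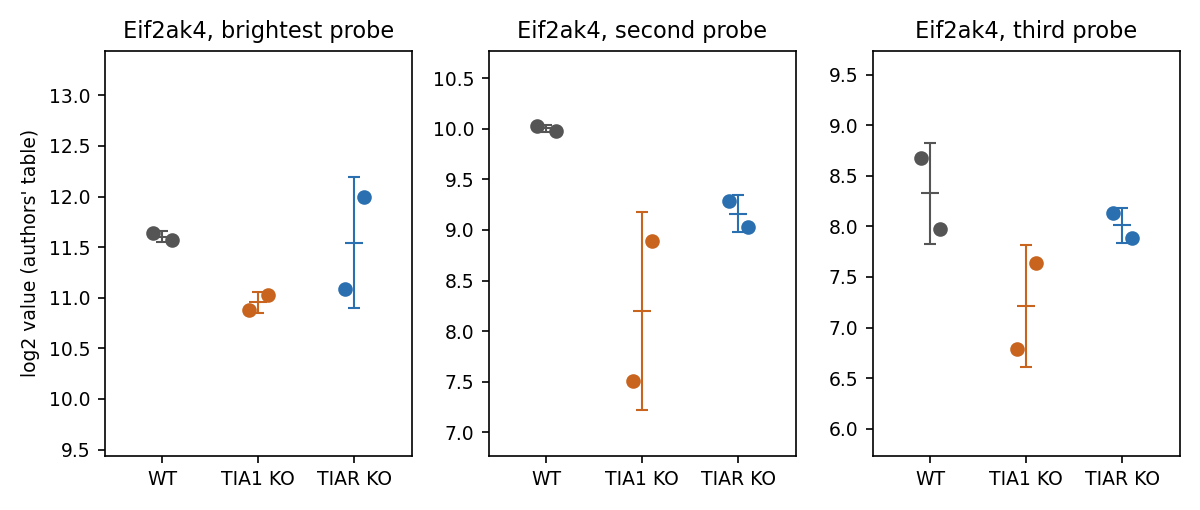
The authors' log2 values of the 3 probes of Eif2ak4 (y axis, log2; every panel spans 4 units) on the 2 arrays of each group; points are arrays, and the line and bar are their mean ± SD (n = 2). In each panel the TIA1 KO arrays lie below the WT arrays, and the TIAR KO arrays lie on either side of WT with the brightest probe and below it with the second.

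Of the 9 brightest probes, that of the phosphatase subunit had the most negative value in both knockouts. GADD34, the product of Ppp1r15a, guides protein phosphatase 1 to eIF2alpha and so ends the response. Its probe (mm9 chr7:52778320-52778379) was at 12.81 and 13.19 in WT, 11.88 and 12.28 in TIA1 KO, and 12.26 and 12.31 in TIAR KO. All 4 knockout arrays lay below both WT arrays. The log2 fold changes were -0.92 ± 0.24 (95% confidence interval -1.61 to -0.23; limma adjusted p = 0.140) in TIA1 KO and -0.71 ± 0.19 (-1.19 to -0.24; limma adjusted p = 0.0961) in TIAR KO, neither called. Both values kept their sign in all 12 alternatives, from -2.45 to -0.72 and from -1.18 to -0.53, and with scaling to a common median both were called.

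Trib3 encodes a pseudokinase that ATF4 and CHOP induce and that feeds back on ATF4. It was at 13.30 and 13.44 in WT, 12.98 and 12.90 in TIA1 KO, and 13.57 and 13.86 in TIAR KO (probe at mm9 chr2:152163161-152163220). The knockouts lay on opposite sides of WT, with no overlap among the 3 groups. The log2 fold changes were -0.43 ± 0.15 (limma adjusted p = 0.193) in TIA1 KO and 0.34 ± 0.18 (limma adjusted p = 0.389) in TIAR KO, which turned to -0.09 with scaling to a common median. The direct difference, TIAR KO minus TIA1 KO, was 0.77 ± 0.19 (95% confidence interval 0.25 to 1.30; limma adjusted p = 0.146).

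Asns encodes asparagine synthetase, a target of ATF4 when amino acids are scarce. It was at 16.52 and 16.57 in WT, 16.00 and 16.07 in TIA1 KO, and 16.33 and 16.39 in TIAR KO (probe at mm9 chr6:7625171-7625228). Replicates were close, and both knockouts lay below WT, TIA1 KO lowest. The log2 fold changes were -0.51 ± 0.15 (95% confidence interval -0.92 to -0.10; limma adjusted p = 0.150) and -0.19 ± 0.15 (-0.57 to 0.20; limma adjusted p = 0.617). They kept their sign in all 12 alternatives.

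Trib3 and Asns were also the only ones of the 9 genes whose promoter windows held the letters TGATGNAAN, taken for the C/EBP-ATF response element that ATF4 binds, on either strand. These letters occurred in 3.95% of all 32851 windows, and no window of the 9 genes held both motifs. In Asns the match begins 23 bases before the start site, and in Trib3 it lies 14 bases after it in reverse complement. The stretches around them (GRCm38.p6 chr6:7693199-7693257 and chr2:152344029-152344057, both reverse strand) are shown with the match in capitals, since they set these genes beside each other by sequence while their values in TIAR KO lay on opposite sides of WT.
Asns: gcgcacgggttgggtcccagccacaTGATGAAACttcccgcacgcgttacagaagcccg
Trib3: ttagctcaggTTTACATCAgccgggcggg

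**Figure D4:**
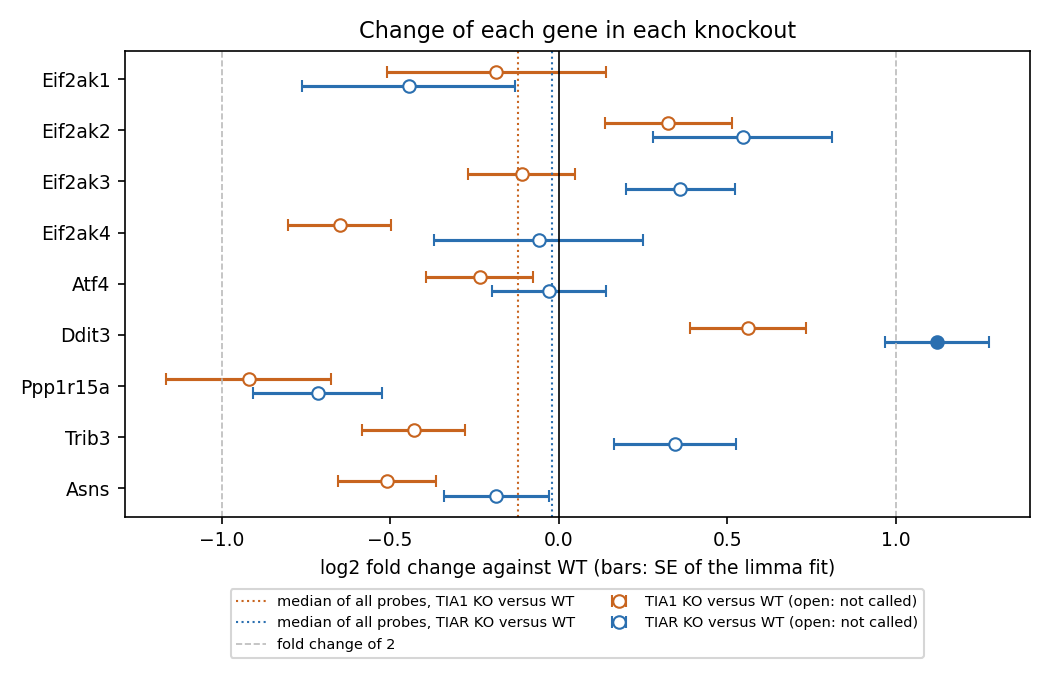
Log2 fold change against WT (x axis; bars are the SE of the limma fit) of the brightest probe of each gene (y axis) in TIA1 KO and TIAR KO; filled points were called, dotted lines are the medians of all probes and dashed lines a fold change of 2. Ddit3 in TIAR KO (1.12) is the only filled point, Ppp1r15a lies left of 0 in both knockouts, and Trib3 lies on opposite sides of 0.

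The wider pathway was followed with 9 lists of genes named by role, read from the brightest probe of each gene. Their calls are set beside the shares of all probes called, 2.35% in TIA1 KO and 5.7% in TIAR KO. Their medians are set beside those of all probes, -0.12 and -0.02, and of probes well above background, -0.34 and -0.05. Counts at an unadjusted p under 0.05 stand beside 14527 of 55680 probes in TIA1 KO, or 8295 of the 23441 well above background, and 10863 of 55678 in TIAR KO, or 8821 of 25193. With intensities scaled to a common median, where 28.5% of all probes were called in TIA1 KO, no member of the first 6 lists kept a positive sign there. Called lower were then 7 of 9 subunits of eIF2 and eIF2B, 7 of 13 regulators, 7 of 9 bZIP factors, 11 of 12 enzymes of amino acid synthesis, 8 of 10 transporters and 14 of 17 tRNA synthetases, and of the other lists 7 of 14 targets of ATF4 and CHOP, 4 of 23 genes of the unfolded protein response and 9 of 12 interferon-induced genes.

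**Figure D5:**
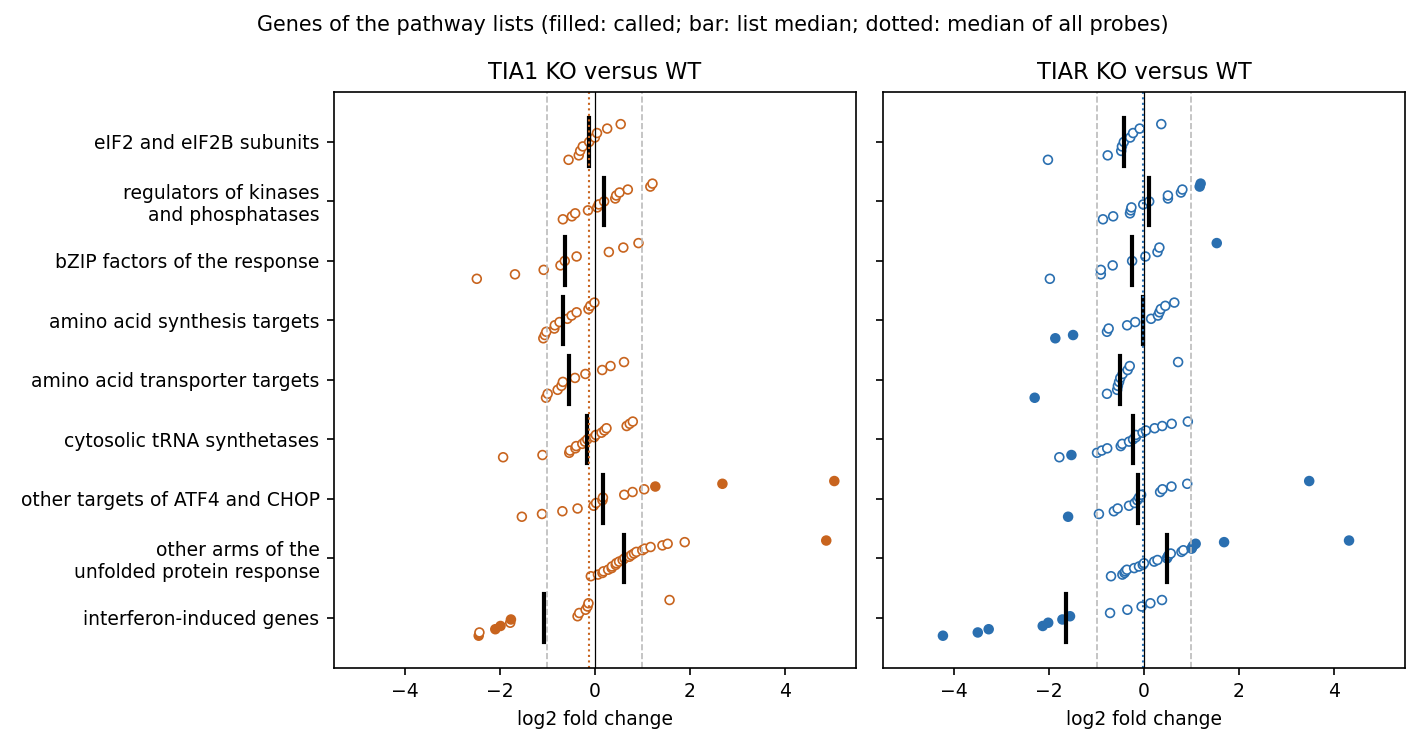
Log2 fold change (x axis) of each gene of the 9 pathway lists (y axis) in TIA1 KO (left) and TIAR KO (right) against WT; points are genes read from their brightest probe, filled where called, black bars are list medians, the dotted line is the median of all probes and dashed lines a fold change of 2. Called genes lie left for the interferon-induced genes in both panels and right for the other arms of the unfolded protein response.

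Of the 9 subunits of eIF2, the target of the kinases, and of eIF2B, its exchange factor, none was called by its brightest probe in either knockout, and 1 of 9 had an unadjusted p under 0.05 in each. The widest value was that of Eif2b1, at 14.86 and 15.00 in WT, 14.26 and 14.49 in TIA1 KO, and 13.99 and 11.82 in TIAR KO. The TIAR KO arrays were far apart, and the log2 fold changes were -0.56 ± 0.17 (limma adjusted p = 0.165) and -2.02 ± 0.66 (limma adjusted p = 0.162). The list medians were -0.12 and -0.42. The median in TIA1 KO was 0.04 without WT replicate 1, -0.045 without TIA1 KO replicate 2 and -1.70 with scaling to a common median. A second probe of Eif2b3, also named after its values were seen, was called lower in TIAR KO (-1.38; limma adjusted p = 0.0199), where the brightest was not (-0.77).

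Eif2s1, which encodes eIF2alpha itself, was read differently by its 2 probes, and is named here after its values were seen. The brighter probe (mm9 chr12:79986224-79986283) was at 14.83 and 14.84 in WT, 14.79 and 14.64 in TIA1 KO, and 14.76 and 13.98 in TIAR KO, with log2 fold changes of -0.12 and -0.47, neither called. The other (mm9 chr12:79987922-79987981) was at 9.09 and 9.28 in WT, 12.18 and 11.64 in TIA1 KO, and 11.59 and 11.09 in TIAR KO. This probe was called higher in both, by 2.73 ± 0.25 (limma adjusted p = 0.0346) in TIA1 KO and 2.15 ± 0.22 (limma adjusted p = 0.00409) in TIAR KO. With single arrays left out, limma's adjusted p of the Eif2s1 probe was 0.415 without WT replicate 1, 0.417 without WT replicate 2 and 0.0526 without TIA1 KO replicate 1 in TIA1 KO, and 0.0883, 0.0733, 0.0710 and 0.0614 without WT replicate 1, WT replicate 2, TIAR KO replicate 1 and TIAR KO replicate 2 in TIAR KO. The level of the gene as a whole is therefore uncertain.

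Among 13 regulators of the kinases and phosphatases, none was called in TIA1 KO (7 had an unadjusted p under 0.05) and 2 rose in TIAR KO. Impact, whose product binds GCN1 and so competes with GCN2 for it, was at 12.95 and 12.94 in WT and 14.03 and 14.25 in TIAR KO (1.20 ± 0.17; limma adjusted p = 0.0126). Prkra, which encodes the PKR activator PACT, was at 10.91 and 11.03 in WT and 12.07 and 12.22 in TIAR KO (1.18 ± 0.16; limma adjusted p = 0.0126). In TIA1 KO they were not called, and their sign turned with the scaling, from 0.52 to -1.02 for Impact and from 0.43 to -0.94 for Prkra with intensities scaled to a common median. A second probe of Impact was not well above background on any array. Tarbp2, whose product holds PKR in check, is named after its values were seen: at 15.46 and 15.42 in WT and 14.64 and 14.51 in TIAR KO, it had a limma adjusted p = 0.0315 but a log2 fold change of -0.86, short of a fold change of 2. In TIA1 KO the widest value was that of Nck1, an adaptor that binds PERK (1.22 ± 0.16; limma adjusted p = 0.0591), which became -0.19 under that scaling. Neither Impact nor Prkra was called when any single array was left out, with limma adjusted p up to 0.130 and 0.132, nor with scaling to the 75th percentile (limma adjusted p = 0.121 and 0.0829) or to a common median (0.80 and 0.87, under the fold needed). Under both scalings none of the 13 regulators was called higher, and 2 were called lower with the common median.

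Of 9 further bZIP factors and partners of the response, none was called in TIA1 KO and 1 rose in TIAR KO. In TIA1 KO 1 was called lower with intensities normalized again (3.14% of all probes called) or all 3 groups fitted together (6.47%). The count was also 1 with only probes well above background (9.69% of those called) or an intensity trend (2.62%). Cebpd, a C/EBP factor of inflammation and differentiation, was at 12.64 and 12.38 in WT, 12.85 and 12.76 in TIA1 KO, and 14.39 and 13.70 in TIAR KO. It was higher on both TIAR KO arrays than on any other (1.53 ± 0.27; limma adjusted p = 0.0264), and not called when any single array was left out (limma adjusted p up to 0.211). In TIA1 KO, where 6 of 9 had an unadjusted p under 0.05, the widest value was that of Batf3 (-2.49 ± 0.48; limma adjusted p = 0.102). Batf3 was well above background on 1 of 2 TIA1 KO arrays.

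Genes of amino acid supply are the best-known targets of ATF4. Of 12 enzymes of amino acid synthesis, all 12 had a negative sign in TIA1 KO (11 of 12 with processed intensities scaled to the 75th percentile), none was called, 6 had an unadjusted p under 0.05, and the median was -0.66. With scaling to a common median 11 were called lower with a median of -1.98, beside 28.5% of all probes. The widest was Pck2, mitochondrial PEP carboxykinase (-1.09 ± 0.44; limma adjusted p = 0.225), well above background on 1 of 2 TIA1 KO arrays. In TIAR KO 6 of 12 were negative (7 with scaling to the 75th percentile and 10 with a common median) and 2 fell, whereas with scaling to the 75th percentile none was called lower and Cbs was called higher. Cth, which makes cysteine from cystathionine, was at 12.31 and 12.64 in WT, 11.51 and 11.75 in TIA1 KO, and 11.10 and 10.86 in TIAR KO. It fell by 1.495 ± 0.19 (limma adjusted p = 0.00998), and its second probe was called as well (-1.46; limma adjusted p = 0.0171). Psph, of serine synthesis, was called lower with a second probe (-1.21; limma adjusted p = 0.0482) and not with its brightest (-0.74), and is named after its values were seen. Pycr1, of proline synthesis, was at 10.45 and 10.66 in WT and 9.22 and 8.15 in TIAR KO (-1.87 ± 0.36; limma adjusted p = 0.0359), and its second probe, near background, gave -0.17. Without any single array, neither Cth nor Pycr1 was called, with limma adjusted p up to 0.146 and 0.252, and Pycr1 was not called with all 3 groups fitted together either (limma adjusted p = 0.0706).

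Of 10 amino acid transporters, none was called in TIA1 KO and 1 fell in TIAR KO (median -0.51). The median in TIA1 KO was -0.55, but -0.12 with scaling to the 75th percentile and -0.21 without WT replicate 1. In TIA1 KO 3 had an unadjusted p under 0.05. The widest value there was that of Slc7a3 (-1.03 ± 0.41; limma adjusted p = 0.215), well above background on 1 of 2 TIA1 KO arrays. Slc38a1, a carrier of neutral amino acids, was at 15.48 and 14.78 in WT, 14.60 and 14.31 in TIA1 KO, and 12.97 and 12.68 in TIAR KO. It fell by 2.31 ± 0.27 (limma adjusted p = 0.00690), and its other probes gave -2.08 and -2.54, both called. Without WT replicate 2 it was still called, and without WT replicate 1 or either TIAR KO array it was not (limma adjusted p up to 0.159).

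Among 17 cytosolic tRNA synthetases, none was called in TIA1 KO (5 with an unadjusted p under 0.05; median -0.16, or 0.03 with scaling to the 75th percentile and -1.54, with all 17 negative, with a common median) and 1 fell in TIAR KO (median -0.23). Kars, the lysyl enzyme, was at 16.68 and 16.69 in WT, 15.09 and 14.41 in TIA1 KO, and 15.28 and 15.03 in TIAR KO. It lay below WT on all 4 knockout arrays, with -1.94 ± 0.28 (limma adjusted p = 0.0708) in TIA1 KO and a called -1.53 ± 0.17 (limma adjusted p = 0.00557) in TIAR KO. That call was lost without any single array (limma adjusted p up to 0.0894) and with scaling to the 75th percentile (limma adjusted p = 0.0828).

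Of 14 other targets of ATF4 and CHOP, 3 rose in TIA1 KO, and in TIAR KO 1 rose and 1 fell. With all 3 groups fitted together, where 6.47% of all probes were called in TIA1 KO, 2 of the 14 were called lower there. With only probes well above background or with an intensity trend 1 was called lower. Stc2, a secreted glycoprotein, was not well above background in WT (7.16 and 7.47) or TIAR KO (6.92 and 6.60), and was at 12.93 and 11.80 in TIA1 KO, where it was at least 33.1-fold higher than in WT (limma adjusted p = 0.0326). It was also the gene of the 9 lists that differed most between the knockouts (at least 48.7-fold lower in TIAR KO than in TIA1 KO, called). That difference was not called with the replicate block, where no probe was called between the knockouts. Vldlr, a lipoprotein receptor, was at 9.75 and 9.16 in WT, 12.16 and 12.13 in TIA1 KO, and 13.09 and 12.79 in TIAR KO. It rose by 2.69 ± 0.26 (limma adjusted p = 0.0359) in TIA1 KO and 3.48 ± 0.25 (limma adjusted p = 0.00117) in TIAR KO, and its second, dimmer probe was called in TIAR KO (1.93) and not in TIA1 KO (1.18). Vegfa, an angiogenic growth factor, rose by 1.27 ± 0.14 in TIA1 KO (limma adjusted p = 0.0473), but its second probe was not called (0.82) and the sign turned to -0.27 with scaling to a common median. Chac1, a glutathione-degrading enzyme, fell by 1.60 ± 0.18 in TIAR KO (limma adjusted p = 0.00593), from 15.66 and 15.88 in WT to 14.29 and 14.05. The 3 calls in TIA1 KO became 0 without WT replicate 1, 0 without WT replicate 2 and 1 without TIA1 KO replicate 1. In TIAR KO, Vldlr was still called without WT replicate 1 or WT replicate 2 and not without TIAR KO replicate 1 or 2, and Chac1 was not called without any single array (limma adjusted p up to 0.107) or with scaling to the 75th percentile.

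The list of other arms of the unfolded protein response holds genes of the IRE1 and ATF6 arms and also the factors Creb3, Creb3l1 and Creb3l2. Its genes lay above WT more often than below. Of 23 genes, 22 had a positive sign in TIA1 KO (23 with processed intensities scaled to the 75th percentile, 4 with scaling to a common median) and 14 in TIAR KO (15 and 11), with medians of 0.62 and 0.48 (-0.71 and -0.03 with scaling to a common median). In TIA1 KO 14 of 23 had an unadjusted p under 0.05 and 1 rose, and in TIAR KO 6 rose. The 1 rise in TIA1 KO became 6 with all 3 groups fitted together, where 6.47% of all probes were called. It became 6 with only probes well above background (9.69% of those called), 7 with an intensity trend (2.62%) and 3 with intensities normalized again (3.14%). It became 0 with scaling to the 75th percentile and with the replicate block. Creb3l1, an ATF6-like factor that acts on collagen secretion, was at 9.17 and 9.12 in WT, 13.98 and 14.07 in TIA1 KO, and 13.44 and 13.50 in TIAR KO. It rose by 4.88 ± 0.15 (limma adjusted p = 0.00746) and 4.32 ± 0.15 (limma adjusted p = 0.000172). Xbp1, the factor whose mRNA IRE1 splices, was at 13.67 and 12.93 in WT, 15.34 and 15.05 in TIA1 KO, and 14.98 and 15.00 in TIAR KO, with 1.90 ± 0.32 (limma adjusted p = 0.0869) and a called 1.69 ± 0.27 (limma adjusted p = 0.0195). Creb3l2, close kin of Creb3l1, rose by 1.09 ± 0.15 in TIAR KO (limma adjusted p = 0.0135). Hspa5, which encodes the chaperone BiP, was not called (0.16 and 0.56). The 6 calls in TIAR KO became 2, 1, 0 and 1 without WT replicate 1, WT replicate 2, TIAR KO replicate 1 and TIAR KO replicate 2, 3 with all groups fitted together, 2 with scaling to a common median and 1 with scaling to the 75th percentile. Creb3l1 kept its sign in all 12 alternatives, from 3.78 to 5.56 in TIA1 KO and from 4.30 to 5.10 in TIAR KO, but not its call in TIA1 KO without WT replicate 1 or 2 (4.91 and 4.86), with scaling to the 75th percentile (limma adjusted p = 0.0590) or with the replicate block (limma adjusted p = 0.122), or in TIAR KO without TIAR KO replicate 1 (4.36). In none of these was any probe called at all. Col1a1, Fn1 and Pdgfra, markers of fibroblasts given above, also rose in both knockouts, and their part was not tested.

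Of 12 interferon-induced genes, a group in which Eif2ak2 is usually counted, 4 fell in TIA1 KO (median -1.07) and 7 in TIAR KO (median -1.64), and none rose by the call. The others were not called, among them Mx1, which was not well above background in WT. In TIA1 KO Mx1 was well above background on 1 of 2 arrays and at least 2.78-fold higher (8.93 and 7.61; limma adjusted p = 0.169). Isg15, a ubiquitin-like modifier, was at 14.17 and 14.03 in WT, 12.10 and 11.90 in TIA1 KO, and 9.60 and 10.12 in TIAR KO. The 3 groups were far apart, and Isg15 fell by 2.10 ± 0.17 (limma adjusted p = 0.0272) and by 4.24 ± 0.22 (limma adjusted p = 0.000464), with a called difference of -2.14 between TIAR KO and TIA1 KO. Its second probe gave -3.38 (not called) and -4.21 (called), and -0.83 between the knockouts (not called). The value of -2.14 kept its sign in all 12 alternatives, from -2.40 to -1.11. Its call was lost with scaling to the 75th percentile, with scaling to a common median and with the replicate block. Usp18, which removes ISG15 from proteins, and Rsad2, an antiviral enzyme, were well above background in WT alone, and were at least 3.72-fold and at least 2.59-fold lower in TIA1 KO (limma adjusted p = 0.0192 and 0.0223). In TIAR KO, Oasl2 (10.36 and 10.56 in WT) was at least 11.4-fold lower (limma adjusted p = 0.000335) and Ifit1 (10.71 and 9.84 in WT) at least 9.68-fold lower (limma adjusted p = 0.00290), both not well above background on either TIAR KO array. Of the transcription factors named here, Irf7 was called lower in both knockouts (at least 2.35-fold in TIA1 KO, limma adjusted p = 0.0450, and at least 3.29-fold in TIAR KO, limma adjusted p = 0.00340), while Stat2 and Irf9 were not called in either. Eif2ak2 was not called, and a second probe of Ifih1, at 7.81 and 7.65 in WT and far apart at 9.48 and 6.46 in TIAR KO, was not called there (0.24 ± 0.91) where the brightest was called lower (-1.56). The 4 calls in TIA1 KO became 0 without WT replicate 1, WT replicate 2 or TIA1 KO replicate 1 and 6 with 1 rise without TIA1 KO replicate 2, and the 7 in TIAR KO became 4, 4, 0 and 2 without WT replicate 1, WT replicate 2, TIAR KO replicate 1 and TIAR KO replicate 2.

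Set directly against each other, the knockouts differed in none of the 9 genes by the call. All but Eif2ak1 (-0.26) had higher means in TIAR KO than in TIA1 KO, from 0.20 for Atf4 and Ppp1r15a to 0.77 for Trib3. Their median was 0.33, beside 0.09 over all probes and 0.29 over those well above background, so most of it was shared with other detected probes. At an unadjusted p under 0.05 there were 2 (Ddit3 and Trib3), beside 11935 of 55681 probes, or 7911 of the 24048 well above background. The share of all probes called in this comparison was 2.3%, 610 higher and 668 lower, a split that became 7186 and 1158 with scaling to a common median and 72 and 1016 with scaling to the 75th percentile. With the former, Eif2ak1 turned to 0.71 and 6 of the 9 genes were called, and with the latter Ppp1r15a turned to -0.05.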

How the data were processed

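RNA of 6 MEF samples was hybridized to 1-colour Agilent mouse arrays. Per the labels and file headers, the authors deposited each array's scanner output, in which spot intensity is linear and not normalized between arrays (Agilent Feature Extraction 10.7.3.1; positions on mm9), and a table of log2 values that the authors corrected by normexp (offset 50) and normalized by loess and quantiles with limma. The log2 table was used here, joined to the scanner files by feature number. Each of its columns correlated at r = 0.977 to 0.986 with the log2 intensity of the same features on its array. Control and outlier spots were left out and spots of a probe averaged (432 probes had several). No probe was filtered. The scanner software rates each spot against background, and a probe took that rating on an array if it held for 50% or more of its spots. Where a group was not, the bound on a fold change took, for each of its arrays, the higher of the probe's value and the lowest value of any probe well above background.

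Each comparison was fitted on its own 4 arrays with limma 3.58.1 (lmFit, eBayes) in R 4.3.3, after tests on simulated data. Calls used the study's thresholds on adjusted p (0.05) and fold change (2). Genes with several probes were read from the brightest. Another probe of a listed gene is given where its call against WT differed. For Isg15, Itgam and Cd68 it is also given where the call between the knockouts differed. Other probes whose sign differed with no call on either are not all given. Genes named were the 9 members, Tia1, Tial1, the 2 genes most correlated with a called member and, in each list, up to 3 called genes per direction or the widest uncalled one. Values of Stat2, Irf7, Irf9, Mx1, Cbs, Hspa5 and Tarbp2, and the second probes given, lie outside that rule and were chosen after they were seen. The members and lists were chosen with earlier results of these data known. Replicate numbers did not pair samples (correlations of deviations 0.07, 0.03 and -0.06). Alternatives were intensities normalized again or scaled in 2 ways, a background filter, outlier spots kept, all 3 groups fitted together, a replicate block, an intensity trend and leaving out each array. Promoters came from RefSeq (GRCm38.p6). Figures used Python 3.11.15 with pandas 2.3.3 and matplotlib 3.10.9.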

Additional observations from a re-analysis of the deposited data

How the results depend on the processing

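Of the values of the 9 genes under 12 alternatives in 3 comparisons, 290 kept their direction and side of the threshold, 14 passed it, 6 (Ddit3 in TIAR KO) no longer did and 14 turned sign. Where a value turned or a count moved, the cause was not tested. With processed intensities scaled to the 75th percentile, the probes called in TIA1 KO went from 1309 to 0, Ddit3 was no longer called in TIAR KO (0 of the 9 genes), and Eif2ak1 in TIA1 KO turned to 0.0843, Atf4 in TIAR KO to 0.0076 and Ppp1r15a between the knockouts to -0.0488. With normexp intensities scaled to a common median, 15884 probes and 7 of the 9 genes were called in TIA1 KO and 8344 probes and 6 of the 9 between the knockouts. Eif2ak2 (-1.16) and Ddit3 (-0.89) then turned in TIA1 KO, Eif2ak3 (-0.0019) and Trib3 (-0.0878) in TIAR KO and Eif2ak1 (0.71) between the knockouts, and the 1 call in TIAR KO was Ppp1r15a instead of Ddit3. Normalizing the scanner intensities again turned Atf4 in TIAR KO to 0.0079. Only probes well above background gave 2271 calls in TIA1 KO and 2338 between the knockouts, and all 3 groups fitted together 3600, 2036 and 3311. With the replicate block, whose numbers do not pair the samples, calls became 0 in TIA1 KO, 2349 in TIAR KO and 0 between the knockouts, and Ddit3 was still called in TIAR KO.

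With single arrays left out, calls ranged from 0 to 11234 in TIA1 KO, 0 to 921 in TIAR KO and 0 to 11385 between the knockouts, and 0 of the 9 genes were called in TIAR KO. The signs that turned were those of Eif2ak1 in TIA1 KO (-0.59 to 0.22), Eif2ak4 (-0.515 to 0.395) and Atf4 (-0.13 to 0.07) in TIAR KO, and Eif2ak2 between the knockouts (-0.12 to 0.56). Where 1 array was left in a group, it was assumed to vary like the other group. With 2 arrays a group the spread is poorly known, and fewer probes stood above background on the TIA1 KO arrays (16021 and 19996) than on the others.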
